A study of Mus musculus with 8 samples.

Results

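The genes described here are the nuclear genes for the subunits of the mitochondrial respiratory chain and ATP synthase, with the assembly factors and gene copies that carry the same family names, in mouse neural stem and progenitor cells with or without the gene Kat7. Members were all genes of the deposited count table whose Entrez identifier belongs to a nuclear protein-coding symbol beginning with Ndufa, Ndufb, Ndufc, Ndufs, Ndufv, Sdha to Sdhd, Uqcr, Cox4 to Cox8 or Atp5. The rule uses names and no measured value, and it gave 99 of the 27179 genes in the table. Of these, 84 are subunits: 36 of complex I, 4 of complex II, 8 of complex III, 19 of complex IV and 17 of complex V. The other 15 are 8 complex I assembly factors (Ndufaf), 4 complex II assembly factors (Sdhaf), the 2 Ndufb4 copies Ndufb4b and Ndufb4c, and Cox7a2l, a factor that joins complexes III and IV. Ndufa4 and Ndufa4l2 are counted with complex IV, where the Ndufa4 protein is now placed.

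Neurospheres, floating clusters of dividing neural precursors, were grown from single fetuses of C57BL/6 mice at E14.5 and kept in proliferation medium. In 4 of the fetuses Kat7, which encodes a histone acetyltransferase, was floxed on both alleles and removed by Cre under Nestin control (Kat7 lox/lox NesCre T/+, "deleted"). The other 4 carried the same Cre transgene with unaltered Kat7 alleles (Kat7 +/+ NesCre T/+, "intact"), so every culture carried the transgene. Each genotype came from 3 litters of its own, with intact replicates 1 and 2 and deleted replicates 3 and 4 as littermate pairs, and an effect of litter cannot be told apart from one of genotype.

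The respiratory chain passes electrons from NADH through complex I, or from succinate through complex II, to ubiquinone, complex III, cytochrome c and finally complex IV, where oxygen is reduced to water. Complexes I, III and IV pump protons across the inner mitochondrial membrane, and complex V, the ATP synthase, uses their return to make ATP. Complex II is built entirely from nuclear genes, whereas the mitochondrial genome supplies hydrophobic core subunits of the other complexes. NRF1, GABP and YY1 are transcription factors long linked to nuclear genes of this pathway.

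For some of these genes the 250 bases before the transcription start are printed. Ndufa6 is the only subunit gene that passed the test. Cox6b1 and Cox6b2 are the broadly expressed and the testis isoform of subunit 6B of complex IV. Sdhd, Uqcrh and Atp5h stand for complexes II, III and V. Each was picked as a subunit of its complex with most kinds of the searched motifs before the start, ties broken by level. These picks are therefore not typical of their complexes. The sequences are from RefSeq on GRCm38.p6 (also called mm10), read 5′ to 3′ on the gene's own strand, and capitals mark matches to the motifs searched.
Ndufa6 promoter, chr15:82354292-82354541, minus strand: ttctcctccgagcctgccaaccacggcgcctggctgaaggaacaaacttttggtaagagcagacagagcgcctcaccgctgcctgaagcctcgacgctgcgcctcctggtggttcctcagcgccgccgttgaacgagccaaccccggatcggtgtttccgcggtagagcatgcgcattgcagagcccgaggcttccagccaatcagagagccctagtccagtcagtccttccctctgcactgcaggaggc
Cox6b1 promoter, chr7:30626115-30626364, minus strand: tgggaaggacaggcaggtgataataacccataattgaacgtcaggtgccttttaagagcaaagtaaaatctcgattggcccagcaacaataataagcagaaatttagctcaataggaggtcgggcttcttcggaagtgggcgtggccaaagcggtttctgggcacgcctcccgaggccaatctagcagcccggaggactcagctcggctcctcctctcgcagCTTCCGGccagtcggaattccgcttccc
Cox6b2 promoter, chr7:4753095-4753344, minus strand: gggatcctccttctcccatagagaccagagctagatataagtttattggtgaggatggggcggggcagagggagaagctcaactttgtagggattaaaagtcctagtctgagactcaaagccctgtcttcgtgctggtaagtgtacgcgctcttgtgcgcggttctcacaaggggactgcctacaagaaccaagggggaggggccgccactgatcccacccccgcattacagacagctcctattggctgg
Sdhd promoter, chr9:50603850-50604099, minus strand: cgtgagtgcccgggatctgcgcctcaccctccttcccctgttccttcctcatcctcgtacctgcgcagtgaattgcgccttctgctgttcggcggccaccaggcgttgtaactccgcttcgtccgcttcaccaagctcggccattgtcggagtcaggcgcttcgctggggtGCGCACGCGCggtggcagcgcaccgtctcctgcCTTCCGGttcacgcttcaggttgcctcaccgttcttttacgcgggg
Uqcrh promoter, chr4:116075071-116075320, minus strand: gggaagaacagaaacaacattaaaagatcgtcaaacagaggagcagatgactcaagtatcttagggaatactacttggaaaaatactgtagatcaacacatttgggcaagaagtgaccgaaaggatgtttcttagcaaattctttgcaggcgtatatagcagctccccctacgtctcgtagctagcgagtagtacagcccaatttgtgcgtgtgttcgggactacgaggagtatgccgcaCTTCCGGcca
Atp5h promoter, chr11:115419920-115420169, minus strand: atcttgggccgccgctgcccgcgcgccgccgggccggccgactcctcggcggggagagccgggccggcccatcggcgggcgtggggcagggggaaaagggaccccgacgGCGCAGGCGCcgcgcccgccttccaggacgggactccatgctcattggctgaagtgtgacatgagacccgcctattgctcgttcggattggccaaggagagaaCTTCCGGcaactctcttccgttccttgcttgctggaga

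The NRF1 consensus of 10 bases (the longer capitals in Sdhd and Atp5h), CCGGAAG for GABP (CTTCCGG when read on the other strand) and AANATGGC for YY1 were searched on both strands of 300-base windows that end 50 bases past the start. No match overlapped another in the printed stretches. Promoters were matched for 81 of the 99 members. A GABP match lay from -28 to -22 in Cox6b1, where -1 is the last base before the start. In Sdhd an NRF1 match lay at -79 to -70 and a GABP match at -46 to -40. Uqcrh held a GABP match at -10 to -4, and Atp5h an NRF1 match at -141 to -132 with a GABP match at -38 to -32. The NRF1 match of Ndufa6 lay at 24 to 33, past the start and outside the printed stretch, and Cox6b2 held none of these letters. These are letter matches, not shown binding sites.

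Among members, 25.9% held the NRF1 motif, against 11.7% of the genes tested for expression and 5.19% of all 27025 genes with a promoter in the reference. The GABP motif was in 27.2% of members, 19.8% of tested genes and 9.93% of all genes. For YY1 the shares were 24.7%, 9.97% and 6.96%. By complex, at least 1 of the motifs was in 21 of 32 complex I subunit promoters, 3 of 3 in complex II, 3 of 5 in complex III, 4 of 13 in complex IV and 13 of 15 in complex V. The YY1 motif was in 12 of the 32 complex I promoters and 1 of the 13 complex IV promoters.

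Library totals ran from 10687817 to 22444359 counts. Kat7 itself had 85.8, 77.1, 81.0 and 92.1 CPM (counts divided by TMM-scaled library size) in intact replicates 1 to 4, and 26.4, 0.367, 13.9 and 0.0870 in deleted replicates 1 to 4. All deleted libraries were thus below all intact ones, but deleted replicates 1 and 3 kept 416 and 253 Kat7 reads where replicates 2 and 4 had 4 and 1. The exons removed are not given in the sources used here. The 8 neural stem and progenitor markers (Nes, Sox2 and others) were all expressed, with summed CPM of 5701 to 6751 in intact and 3921 to 7009 in deleted libraries. Neuron markers summed to 115 CPM in deleted replicate 2 (4.72 to 10.8 elsewhere), most of it Dcx. The listed genes did not move together there. Rbfox3 (8.17 CPM) and Snap25 (4.96) were also highest in that library. Tubb3 was at its lowest (1.38, against 4.70 to 6.04 in intact libraries), and Syt1 and Stmn2 were at 0. Fibroblast or mesenchyme markers summed to 277 CPM there and 108 in deleted replicate 4 (0.897 to 7.30 elsewhere). Nearly all of this was Acta2 (191 CPM) and Dcn (84.1) in replicate 2, and Acta2 alone (106.5) in replicate 4. The other listed genes, Col1a1, Col1a2, Lum and Pdgfrb, were at 1.56 CPM or less everywhere. Astrocyte markers summed to 69.8 to 103 CPM in intact and 124 to 366 in deleted libraries, with different genes leading the sum in different deleted libraries. The erythroid genes Hbb-bs and Hba-a1 were at 0 throughout.

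Levels between genes are compared as RPKM, CPM per kilobase of the deposited gene length. Atp5b, the catalytic beta subunit of ATP synthase, was the most abundant member at 1000 RPKM on average in intact libraries. It was followed by Atp5a1, the alpha subunit, at 601, Cox4i1, the regulatory subunit 4 of complex IV, at 496, and Atp5g3, which encodes the c-ring protein, at 468. The top subunits of the other complexes were Ndufc2, an accessory subunit of complex I, at 402 ± 49.3 (SD, n = 4), Uqcrh, the hinge protein of complex III, at 282, and Sdhc, a membrane anchor of complex II, at 134. The median subunit of complexes I to V stood at 76.8, 111, 117, 194 and 159 RPKM, counting subunits that passed the filter on low counts.

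**Figure D1:**
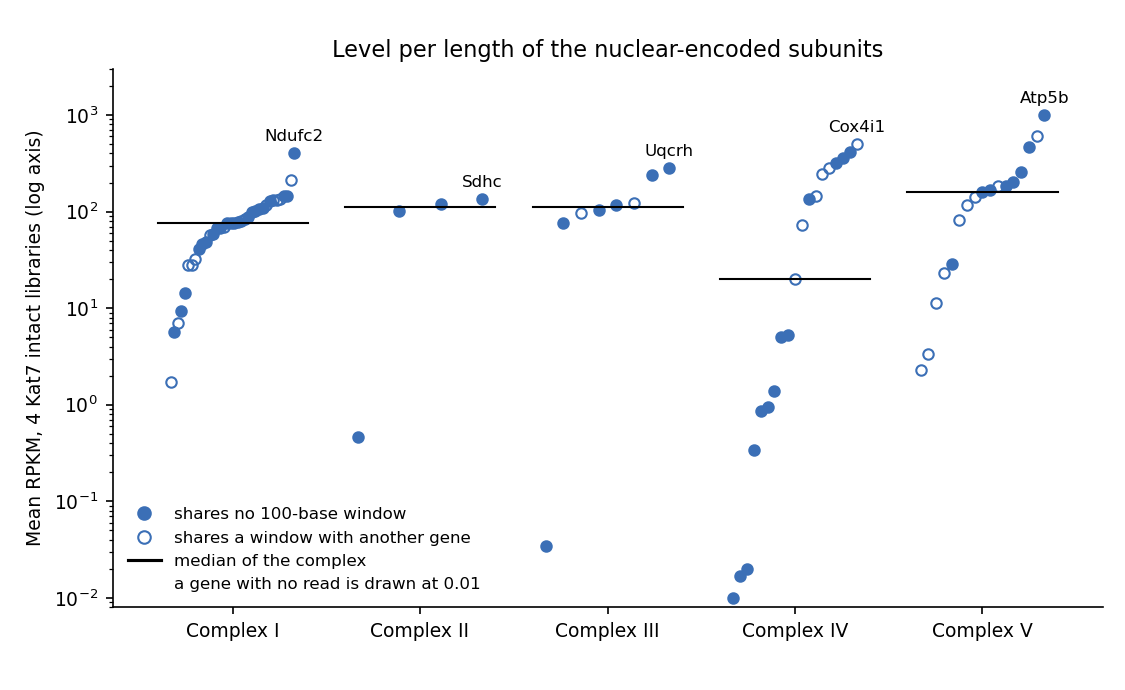
Mean RPKM in the 4 Kat7 intact libraries (log axis) of each of the 84 nuclear-encoded subunits, by complex; open circles share at least 1 window of 100 bases with transcripts of another gene, and black lines are medians over all subunits of a complex, including those that did not pass the filter on low counts. Atp5b is highest at 1000 RPKM, and the long lower tail of complex IV holds its tissue isoforms.

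Some subunits found in every working complex had very few reads. Uqcr11, a small subunit of complex III, had 1 read in all 8 libraries together, Sdhd, the second membrane anchor of complex II, stood at 0.468 RPKM against 134 for Sdhc, and Cox7a2, the widely expressed form of subunit 7A, at 5.04 RPKM. Atp5l, a membrane subunit of ATP synthase, stood at 2.30 RPKM and Atp5g2 at 3.39. Reads of 100 bases from near-identical copies could be discarded or split by a counter. Windows of that length were therefore searched, with no mismatch allowed, in annotated transcripts of other genes. Copies that differ within every window, or that are not annotated, are missed by this search. For Atp5l 69.0% of windows occurred in another gene, for Atp5g2 34.7% and for Ndufb4 33.4%, whereas for Uqcr11, Sdhd and Cox7a2 none did. Values of members with shared windows are uncertain for that reason, and the part of this in the low levels was not tested.

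Of the members, 91 passed the filter on low counts and were tested for a difference between genotypes. The 8 that did not pass were Uqcr11, the lung isoform Cox4i2, the muscle isoforms Cox6a2, Cox7a1 and Cox8b, the testis isoforms Cox7b2 and Cox8c, and Ndufa4l2. A gene was called where edgeR's quasi-likelihood test gave an adjusted p under 0.05, by Benjamini-Hochberg adjustment over the 13498 genes tested. Among those genes 1066 were called, or 7.90%: 688 higher in deleted cells (5.10%) and 378 lower (2.80%). With library totals in place of TMM scaling the split was 309 higher and 364 lower. Of the 91 members 1 was called higher, Ndufa6, and 0 were called lower. At an unadjusted p under 0.05, 12 of the 91 members were higher and 1 was lower, against 15.8% higher and 10.4% lower of all tested genes. DESeq2 called 5.96% of its 22037 genes higher and 4.01% lower. These genes include low-count ones that edgeR's filter removed, so the shares of the 2 tools have different bases. Among members DESeq2 called 3 higher (Cox8b, Ndufa6 and Ndufv3) and 1 lower (Ndufaf2). Because whole cultures were sequenced, more cells of one kind and more RNA per cell cannot be told apart in any of these values.

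Ndufa6 encodes an LYR-motif accessory subunit of the peripheral arm of complex I and lies at chr15:82350139-82354291. It had 9.05, 8.43, 7.43 and 6.93 CPM in the intact libraries and 14.96, 11.7, 10.9 and 14.3 in the deleted ones. Every deleted library was above every intact one. It rose by a log2 fold change of 0.70 ± 0.18 (SE), adjusted p = 0.0464 in edgeR's test. The call lay close to the threshold: it held in 5 of 22 alternative settings, with adjusted p from 0.00751 to 0.140. It was lost when any intact library was left out (0.0983 to 0.138) or when deleted replicate 1, 3 or 4 was (0.0551, 0.0535 and 0.0878), and kept without deleted replicate 2 (0.0318).

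Complex I takes electrons from NADH at its flavoprotein core, and its 7 nuclear core subunits carry the flavin and iron-sulfur clusters. Their fitted log2 fold changes were all above 0, with a median of 0.46, against 0.23 for the 29 accessory subunits and 0.05 for all tested genes. Deleted replicate 1 was the highest library for all 7 core subunits. In deleted replicates 1 to 4 the median core subunit stood 0.85, 0.10, 0.25 and 0.30 log2 CPM from the intact mean. The median accessory subunit stood at 0.58, -0.06, 0.05 and 0.32. Ndufv1, which binds NADH and the flavin, had 115, 126, 133 and 111 CPM in intact libraries against 236, 156, 144 and 139 in deleted ones. Its groups did not overlap, and its difference was 0.48 ± 0.18 (SE) on the log2 scale, adjusted p = 0.142. The iron-sulfur subunit Ndufs8 had 76.8, 67.3, 86.3 and 64.6 CPM against 119, 95.8, 100.4 and 90.3, with no overlap and an adjusted p of 0.0752. Ndufs7, next to the ubiquinone site, had 39.3, 36, 38.6 and 32.8 CPM against 59.2, 40.2, 50.02 and 54.8, again with no overlap, adjusted p = 0.0723. For the largest core subunit, Ndufs1, the groups did overlap: 152, 171, 205 and 144 CPM against 315, 134, 154 and 123. None of these core subunits was called.

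The accessory subunits surround that core. Ndufv3, which sits at the flavoprotein module, had the largest fitted difference of complex I, and its 68.4, 72.2, 66.6 and 54.4 CPM in intact libraries all lay below the 164, 102, 93.5 and 90.2 CPM in deleted ones. Its log2 difference was 0.78 ± 0.21 (SE) with an adjusted p of 0.0526, just outside the threshold, and it was called in 7 of 22 alternatives. Without deleted replicate 1, which holds its highest value, the difference was 0.54 and the adjusted p 0.0284. Ndufs4, a subunit whose loss causes Leigh-like disease, was the only complex I subunit fitted below 0, at -0.09 ± 0.17 (SE), adjusted p = 0.777, with overlapping groups. Ndufc2, the most abundant, had 267, 309, 290 and 231 CPM against 338, 225, 265 and 294, a log2 difference of 0.04 with adjusted p = 0.913. In all, 35 of the 36 complex I subunits were fitted above 0.

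Assembly factors help build complex I or II but are not part of it. The 12 with these names had a median log2 difference of 0.02, with 7 fitted above 0 and 5 below, and none was called. Ndufaf2, a chaperone of late complex I assembly, had 21.0, 20.6, 25.3 and 19.8 CPM in intact libraries and 14.7, 18.2, 15.4 and 16.6 in deleted ones. It was the one member with all deleted libraries below all intact libraries, a pattern found in 9.21% of all tested genes. Its log2 difference was -0.42 ± 0.13 (SE), with an adjusted p of 0.0915 in edgeR's test and 0.0407 in DESeq2. Ndufaf3, an early assembly factor, had 6.27, 4.31, 8.27 and 3.97 CPM against 19.3, 5.42, 10.7 and 4.70, so the 2 deleted libraries that kept Kat7 reads held its highest values.

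Complex II, succinate dehydrogenase, links the chain to the tricarboxylic acid cycle. Its flavoprotein Sdha had 285, 298, 295 and 273 CPM in intact libraries against 502, 301, 308 and 290 in deleted ones, a log2 difference of 0.28, adjusted p = 0.378. Deleted replicates 2, 3 and 4 stood close to the intact range, and replicate 1 alone stood far above it. Sdhb, the iron-sulfur subunit, had 132, 132, 143 and 113 CPM against 215, 62.4, 120.5 and 151, so the highest and the lowest library were both deleted ones. Its log2 difference was 0.08 ± 0.32 (SE), adjusted p = 0.900. Sdhc and Sdhd had differences of 0.25 and 0.54, adjusted p = 0.586 and 0.455, the latter from 5 to 22 reads a library and with overlapping groups.

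Complex III hands electrons to cytochrome c. Uqcrc1, a core protein related to processing peptidases, had 182, 195, 228 and 170 CPM in intact libraries against 355, 194, 237 and 262 in deleted ones. The groups overlapped, and the log2 difference of 0.44 ± 0.19 (SE) had an adjusted p of 0.196. Uqcrh had 155, 146, 182 and 134 CPM against 240, 122, 144 and 173, a difference of 0.14. Uqcrb, which lies near the ubiquinone pocket, differed least, by 0.01 ± 0.23 (SE), and this value was below 0 in 13 of 22 alternatives. The Rieske iron-sulfur protein Uqcrfs1 differed by 0.18, adjusted p = 0.644. All 7 tested subunits of complex III under the name rule were fitted above 0, and none was called. Cyc1, a further nuclear subunit of complex III, is not a member by name. It had 118, 119, 152 and 115 CPM against 203, 110, 166 and 175.

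Complex IV, cytochrome c oxidase, is the only complex with many tissue isoforms, and the broadly expressed form dominated each family except Cox7a. There Cox7a2 stood at 5.04 RPKM in intact libraries against 1.40 for the muscle form Cox7a1. Cox4i1 made up 100.0% of the Cox4 RPKM (24844 intact reads against 1 for Cox4i2), Cox6a1 99.7% of its pair with the muscle form Cox6a2, and Cox8a 99.7% of the Cox8 forms in intact libraries. Ndufa4 made up 99.9% of its pair with the hypoxia-linked Ndufa4l2, and Cox7b likewise stood alone, with 1 intact read for Cox7b2. Cox6a1, Cox6b1, Cox7a2, Cox7b, Cox8a and Ndufa4 had log2 differences of 0.36, 0.22, 0.51, 0.15, 0.20 and 0.14, with adjusted p from 0.343 to 0.664. Cox4i1 had 329, 355, 362 and 300.5 CPM against 500.4, 287, 325 and 455, adjusted p = 0.512. In each of these the groups overlapped.

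Cox6c, the subunit that borders the transmembrane core of complex IV, had the smallest p of that complex. It had 134, 120.3, 133 and 103 CPM in intact libraries against 203, 264, 135 and 153 in deleted ones. The groups did not overlap, and it was the one subunit whose highest library was deleted replicate 2. Its log2 difference was 0.62 ± 0.21 (SE), adjusted p = 0.108. Cox7c, by contrast, had 9.69, 8.61, 8.46 and 9.12 CPM against 10.7, 6.98, 8.02 and 11.7, a difference of 0.06 ± 0.20 (SE). Cox7a2l, the joining factor that is no subunit, had a difference of -0.18 ± 0.12 (SE), adjusted p = 0.391.

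The testis form Cox6b2 and the muscle form Cox8b varied among the deleted cultures. Cox6b2, of subunit 6B, stayed between 2.97 and 3.35 CPM in the intact libraries but had 1.90, 0.734, 8.73 and 20.2 CPM in the deleted ones. Its share of the Cox6b RPKM was 1.20% to 1.38% in intact libraries, and deleted replicates 1 to 4 held 0.504%, 0.350%, 3.17% and 6.16%. The littermates 3 and 4 were thus above every intact library and replicates 1 and 2 below, and the log2 difference of 1.31 ± 0.83 (SE) had an adjusted p of 0.347; without deleted replicate 4 it was 0.28. Cox8b, of subunit 8, had 5, 5, 10 and 5 reads in intact libraries and 156, 0, 67 and 16 in deleted ones. Its exact 95% Poisson interval for the 0 in replicate 2 reaches 3.69 reads, and for counting error only. With no filter on low counts its log2 difference was 3.41 ± 1.16 (SE), adjusted p = 0.166 in edgeR's test, and DESeq2 called it (adjusted p = 0.00958). The summed CPM of striated muscle markers was 4.97 to 7.48 in intact libraries against 5.07, 1.10, 13.4 and 7.30 in deleted replicates 1 to 4. Nearly all of it was Myh7, at 4.67 to 7.34 CPM in intact and 1.10 to 13.3 in deleted libraries. Ckm was at 0 throughout, and Actn2 was at 0.870 CPM or less. Tnnt2 was at 0.120 CPM or less, from 0 to 2 reads a library. Every deleted library was below every intact one, but intact replicate 1 and deleted replicate 3 held 1 read each. Those 2 libraries differed only in scaled library size. Cox7a1, another muscle form, had 7, 8, 12 and 11 reads against 37, 3, 17 and 2.

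**Figure D2:**
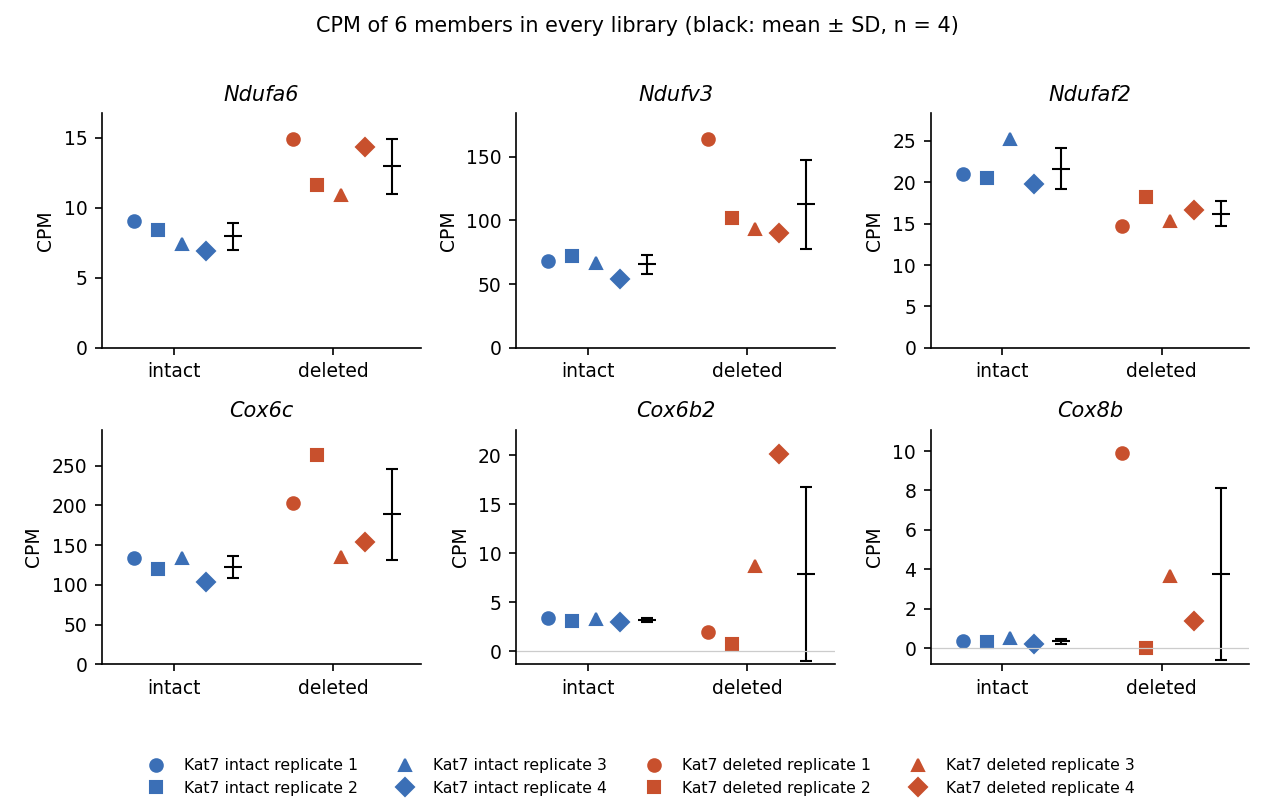
CPM of 6 members in the 4 Kat7 intact (blue) and 4 Kat7 deleted (red) libraries, with marker shapes for replicates 1 to 4 and black bars for the mean ± SD of each group. Ndufa6, Ndufv3 and Cox6c do not overlap between groups and are higher in deleted libraries, Ndufaf2 is lower, and Cox6b2 and Cox8b run from below to far above the intact range.

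Complex V consists of the F1 head, where ATP is made, a rotating c-ring, a peripheral stalk and small membrane subunits. Atp5b had 1852, 1971, 2127 and 1569 CPM in intact libraries against 2924, 1642, 2022 and 1719 in deleted ones, a log2 difference of 0.14 ± 0.22 (SE), adjusted p = 0.721. Only replicate 1 of the deleted libraries lay above the intact range. The 5 head subunits had a median difference of 0.14, the 3 c-ring genes 0.15, the 4 stalk subunits 0.22 and the 5 membrane subunits 0.17. Of the 17 subunits 15 were fitted above 0, and none was called.

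The c-ring protein is encoded by Atp5g1, Atp5g2 and Atp5g3, which differ only in the import signal that is cut off. Atp5g3 gave 94.6% of the family's RPKM in intact and 93.3% in deleted libraries. Atp5g1 had 18.7, 20.8, 23.3 and 18.4 CPM in intact libraries and 31.6, 20.8, 30.9 and 32.2 in deleted ones, so 3 deleted libraries lay above the intact range and replicate 2 within it. Its log2 difference was 0.51 ± 0.17 (SE), adjusted p = 0.0947, and without deleted replicate 2 it was 0.64 with an adjusted p of 0.0167. Atp5g2, at 1.85 to 2.83 CPM in intact libraries, differed by -0.12 ± 0.31 (SE). Atp5l had the largest fitted difference of the complex, 0.80 ± 0.35 (SE), adjusted p = 0.189, from 1.43, 0.777, 1.47 and 1.05 CPM against 2.41, 1.56, 1.43 and 2.87. The inhibitor of the ATP synthase, Atpif1, is not a member by name. It had 114, 115, 93.0 and 86.4 CPM against 90.9, 45.9, 97.1 and 114, adjusted p = 0.605.

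**Figure D3:**
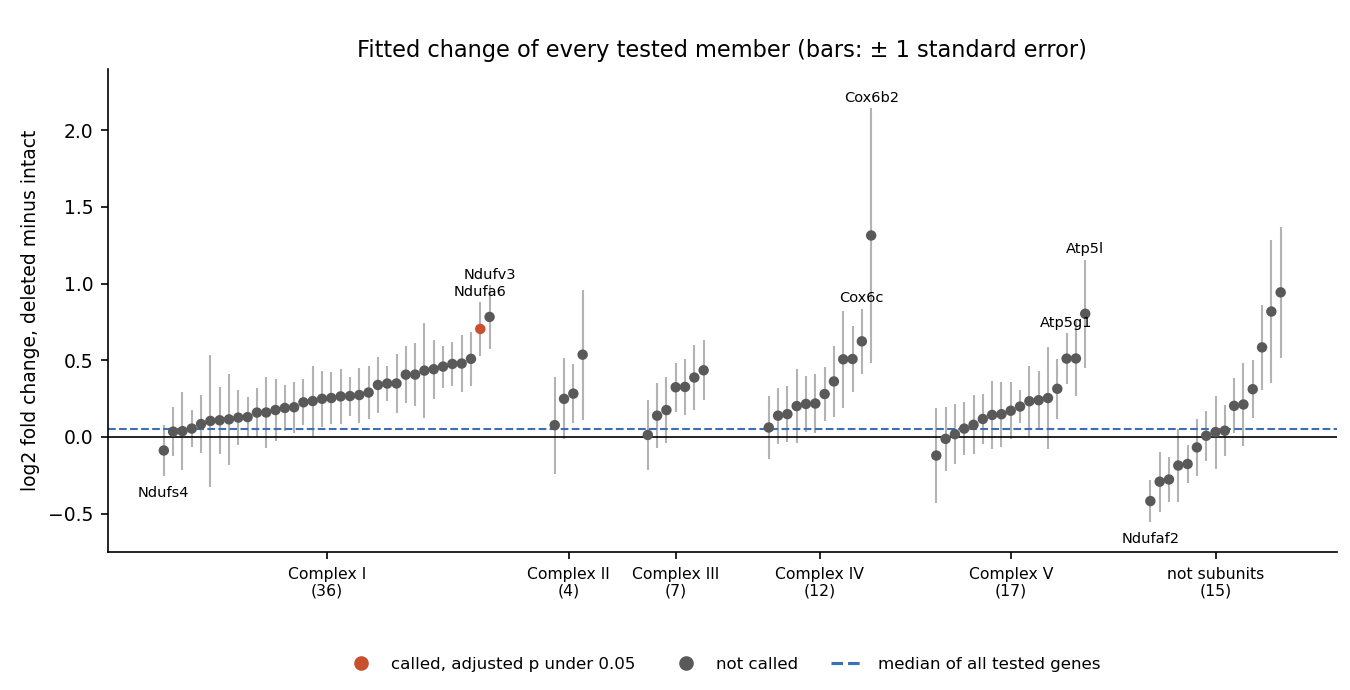
Fitted log2 fold change (deleted minus intact) with 1 standard error for each of the 91 tested members, ordered by value within complexes I to V and, at the right, the 15 members that are not subunits. Most subunits lie above both 0 and the median of all tested genes (dashed, 0.05), and 1 of them, Ndufa6 (red), was called.

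Seen together, 73 of the 76 tested subunits were fitted above 0 and 3 below, with a median log2 difference of 0.24 (with library totals 50 were above 0). For all tested genes the median was 0.05 and 55.0% were above 0. The median was 0.00 for tested genes of at most 1000 bases, a length to which 62 of the 84 subunits belong, and -0.15 for the 467 genes at or above the subunits' median RPKM. By complex the medians were 0.25 (I), 0.27 (II), 0.32 (III), 0.25 (IV) and 0.17 (V), and without deleted replicates 1 and 4 they were -0.03, -0.16, 0.05, -0.08 and -0.12. Groups did not overlap for 10 of the 91 members, 9 with deleted above intact and 1 below, or 11.0% against 19.9% of all tested genes (10.7% above and 9.21% below). The 9 were Ndufa2, Ndufa6, Ndufv3, Ndufs7, Ndufs8, Ndufv1, Ndufb4b, Cox6c and Atp5j. Genes share libraries, so this common sign is 1 pattern and not many separate ones. Subunits that share no window with another gene had a median of 0.24 and those that share one had 0.23.

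Deleted replicate 1 had the largest differences. Measured against the intact mean, the median subunit stood at 0.02, 0.01, 0.15 and -0.18 on the log2 CPM scale in intact replicates 1 to 4, with the deleted ones at 0.64, -0.18, 0.08 and 0.30 in the same order. Deleted replicates 1 and 4 lay above the intact range and replicates 2 and 3 within it. The summed level of the 5 astrocyte markers was also highest in those libraries. It was 366, 128, 124 and 235 CPM in deleted replicates 1 to 4 against 69.8 to 103 in intact ones. The sum rested on different genes. In replicate 1 it was mostly Gfap (147 CPM) and S100b (111), and in replicate 4 Aldh1l1 (139), with Gfap at 1.91. Gfap and Aqp4 did not overlap between groups, whereas Aldh1l1, S100b and Gja1 did, with Gja1 fitted lower (-0.19 on the log2 scale). Of the 5 markers 1, Aqp4, was called higher and none was at 0 throughout. The part of these markers in the subunit values was not tested. Deleted replicate 1 was the highest of the 8 libraries for 58 of the 76 subunits (76.3%, against 23.0% of all tested genes), deleted replicate 4 for 16, and replicate 2 for 1. Deleted replicate 2 was the lowest for 32 (42.1%, against 21.7% of all genes). Without deleted replicate 1 the subunit median was 0.08, with 51 of 76 above 0, and the all-gene median 0.03. Without deleted replicates 1 and 4 the subunit median was -0.06 and 28 of 77 were above 0.

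**Figure D4:**
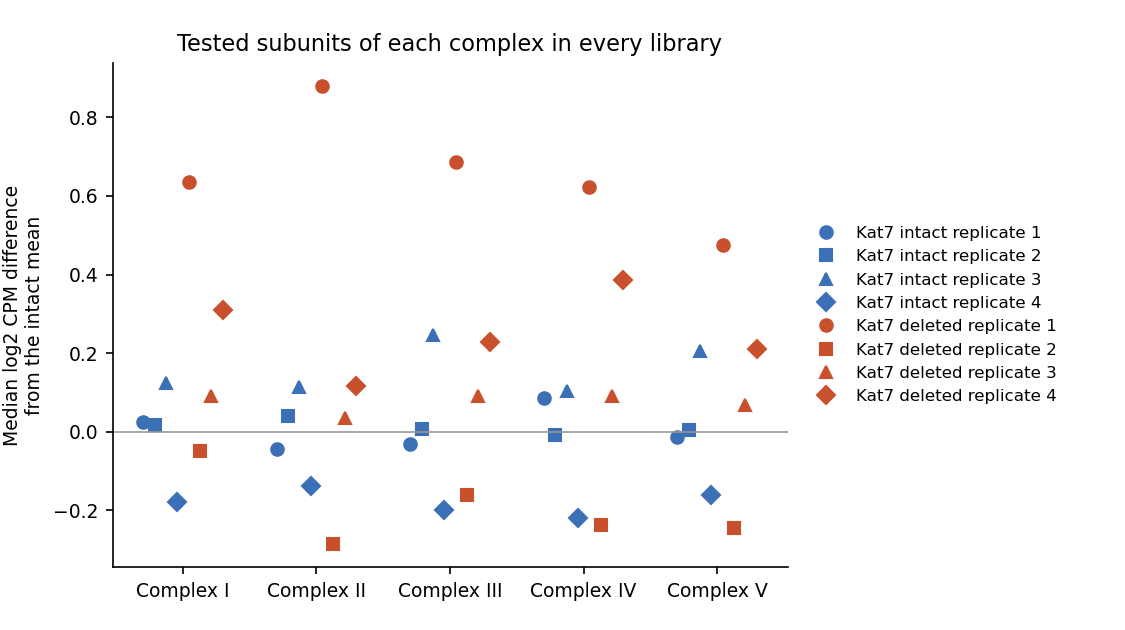
Median difference of the tested subunits of each complex from the mean of the intact libraries, in log2 CPM, for every Kat7 intact (blue) and Kat7 deleted (red) library. In each complex deleted replicate 1 is highest (0.48 to 0.88), while deleted replicates 2 and 3 lie at or below the highest intact library.

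By the median difference the 5 complexes ordered the deleted libraries alike, with replicate 1 highest, replicate 4 next, then 3 and 2. The summed CPM gave the same order in complexes I to IV but not in V, where deleted replicates 1 to 4 held 7115, 4078, 4936 and 4527 CPM and replicate 4 was at 93.8% of the intact mean. In replicate 1 the median difference was largest for complex II (0.88) and smallest for complex V (0.48), and in replicate 4 largest for complex IV (0.39) and smallest for complex II (0.12). Summed over all subunits, intact libraries held 10368 ± 1041 CPM (SD, n = 4) and deleted libraries 11810 ± 2861 (SD, n = 4), a ratio of 1.14 that is smaller than the spread between deleted cultures. The SD over replicates of log2 CPM was larger in deleted cells for 74 of 76 subunits (97.4%), as it was for 86.6% of all tested genes, with medians of 0.17 in intact and 0.36 in deleted libraries.

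The libraries with the highest subunit values also had the most mitochondrial reads. Genes of the mitochondrial genome took 21.8%, 19.3%, 19.0% and 23.5% of counts in intact replicates 1 to 4, against 29.9%, 19.0%, 17.1% and 34.4% in deleted ones. TMM factors were 1.02 to 1.08 in intact libraries and 0.864, 1.02, 1.06 and 0.878 in deleted ones. The part of the mitochondrial share in the subunit values was not tested. With the mitochondrial genome left out of the library sizes the subunit median was 0.21 and the all-gene median 0.03. With library totals in place of TMM they were 0.08 and -0.09, so scaling moved all genes together by over 0.1, and the gap between subunits and all genes was 0.18 with TMM and 0.16 with totals.

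Subunits encoded by the mitochondrial genome complete the same complexes. Of its 13 protein genes 12 were tested, all were fitted above 0 with a median log2 difference of 1.19, and 0 were called by edgeR's test, with 8 higher at an unadjusted p under 0.05 (15.8% of all tested genes were) and 5 called higher by DESeq2 (5.96% of its genes). ND2, a membrane subunit of complex I, had 162, 83.8, 151 and 136 CPM in intact libraries against 263, 118, 589.5 and 1362 in deleted ones. COX1, the catalytic subunit of complex IV, had 5575, 3400, 4020 and 5574 CPM against 9508, 4041, 5054 and 13837. Their order over the deleted libraries differed from that of the nuclear subunits: deleted replicate 4 was highest for 11 of the 12 tested genes. These libraries were made from polyadenylated RNA, and the groups overlapped for all 12.

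The other genes of the pathway were taken from lists of electron carriers with subunits outside the name rule, assembly factors, tricarboxylic acid cycle enzymes, import machinery and regulators. Of 128 tested genes in these lists 1 was called higher and 0 lower, against 5.10% higher and 2.80% lower of all tested genes. The called one was Aox1, with 9.84, 6.16, 6.21 and 9.25 CPM in intact libraries against 108, 42.2, 36.8 and 79.6 in deleted ones, a log2 fold change of 3.09 ± 0.38 (SE), adjusted p = 0.00692. Every deleted library was above every intact one, but the mouse gene encodes a cytosolic aldehyde oxidase and no carrier of the chain. Without Aox1 the list of carriers and further subunits had 0 calls among 18 tested genes. Among 19 tested cycle enzymes the median was 0.23 with 16 above 0, and Ogdh, a subunit of the oxoglutarate dehydrogenase complex, had 112, 93.3, 106 and 102 CPM against 282, 121, 190 and 168, adjusted p = 0.0530. Import genes (27 tested) and regulators (23 tested) had medians of -0.02 and -0.02, and other assembly factors (40 tested) 0.15. Nrf1 had 59.2, 62.2, 60.6 and 60.1 CPM against 40.6, 57.9, 56.2 and 40.9, with no overlap and an adjusted p of 0.216, and Gabpa 104, 102, 102 and 102 against 105, 96.0, 83.7 and 58.8, adjusted p = 0.372. Ppargc1a, a coactivator of mitochondrial biogenesis, had 40.0, 36.5, 47.9 and 35.3 CPM against 144, 5.69, 52.4 and 44.8, so its highest and lowest values lay in deleted replicates 1 and 2, as for many subunits.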

How the data were processed

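RNA of 8 neurosphere cultures was sequenced as polyadenylated RNA in 100-base single-end reads, per the labels' protocols. The authors deposited a table of raw read counts per gene for 27179 Entrez identifiers with a gene length for each, not normalized. CASAVA 1.8.2, featureCounts and the build mm10 were used, per the submitters' processing notes. Aligner, strand setting and featureCounts version are not given in the sources used here, so the reads of 33 members that overlap another RefSeq gene may be mixed. Symbols and coordinates came from RefSeq on GRCm38.p6 by exact identifier, which matched 25275 genes; Ndufb1 was not matched, and 5 name matches that are not protein-coding were left out.

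Groups are the 4 intact and 4 deleted libraries of the labels, each from its own fetus. Genes were tested in R 4.3.3 with edgeR 4.0.16: filterByExpr with a minimum count of 10, TMM, robust quasi-likelihood F test on all 8 libraries, no covariate, and Benjamini-Hochberg adjustment over all tested genes. Adjusted p-values with no named tool are edgeR's. CPM uses TMM-scaled library sizes, log2 CPM a prior count of 2, and 1 read was worth 0.0436 to 0.0918 CPM. All replicate pairs differed beyond sampling noise (chi-square per degree of freedom of 12.2 or more). The fits were tested on simulated data. Poisson intervals cover counting error only.

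Alternatives were other scalings and filters, DESeq2 1.42.0, limma-voom (limma 3.58.1) with or without weights per sample, a random block for litter, littermates summed, a replicate block, the mitochondrial genome left out, each library left out, and the deleted pairs 1 and 4 and 1 and 3 left out. The members and lists were chosen with earlier results of these data known. Named genes were the members called, in each complex the subunits with the highest level per length, the smallest p and the largest and smallest fitted difference, all isoform families, the ATP synthase inhibitor, Kat7, and called genes of the other lists. Further members were named after their values were seen: Ndufv1, Ndufs1, Ndufs7, Ndufs8, Ndufaf2, Ndufaf3, Uqcrfs1, Uqcr11, Atp5a1 and those listed as not overlapping; likewise Ogdh, Nrf1, Gabpa, Ppargc1a, ND2 and COX1.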

Additional observations from a re-analysis of the deposited data

Results flagged for a closer look

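In 5 of the 73 groups of 4 libraries examined, 1 library stood apart from the other 3 by more than Dixon's 95% critical value. Chance alone gives about 1 in 20 such groups. Deleted replicate 1 stood above the other deleted libraries for Ndufv3 (164 CPM), the flavoprotein-module subunit of complex I, for Sdha (502 CPM), the flavoprotein of complex II, and for Cox6a2 (1.52 CPM), a muscle isoform of complex IV. Deleted replicate 2 stood below them for Atp5g1, a c-ring gene of complex V, at 20.8 CPM. Intact replicate 4 had the lowest summed level of complex IV, 1254 CPM.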

How the results depend on the processing

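All genes called higher numbered 309 with library totals, 1314 with DESeq2, 1291 with limma-voom and sample weights, 232 with litter as a random block, 106 with littermates summed, 204 with the replicate block, 1160 without deleted replicates 1 and 3 (those with Kat7 reads), and 102 to 1260 with 1 library left out. Genes called lower numbered 883 with DESeq2, 992 with sample weights, 182 with the litter block, 87 with littermates summed, 115 with the replicate block, 590 without deleted replicates 1 and 4 (high mitochondrial share), 1139 without 1 and 3, and 86 to 922 with 1 library left out. The members called higher were 3 with DESeq2, 4 with sample weights, 2 at a minimum count of 50, 2 without deleted replicates 1 and 3, and 0 with RLE size factors, upper-quartile scaling, library totals, no filter, the litter block, littermates summed, the replicate block or the mitochondrial genome left out; with 1 library left out they were 0 to 7, the 7 without deleted replicate 2. Members called lower were 1 with DESeq2 and 0 to 1 with 1 library left out. Mitochondrial genome transcripts called higher were 5 with DESeq2, 5 with sample weights and 0 to 7 with 1 library left out. Other genes of the pathway called higher were 6 with DESeq2, 8 with sample weights, 2 without deleted replicates 1 and 3 and 1 to 9 with 1 library left out; called lower they were 4, 2 and 2, then 2 without deleted replicates 1 and 4, and 0 to 5. The causes of these differences were not tested. Leaving libraries out also leaves fewer samples.

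The median log2 difference by complex was lowest without deleted replicates 1 and 4, at -0.03 (I), -0.16 (II), 0.05 (III), -0.08 (IV) and -0.12 (V), so that all but III were below 0. Without deleted replicates 1 and 3 it was -0.06 in II and -0.03 in V, and with library totals 0.09, 0.10, 0.17, 0.08 and 0.01 in I to V. With 1 library left out it ran from 0.12 to 0.35 in complex I, -0.02 to 0.37 in II, 0.18 to 0.39 in III, 0.11 to 0.40 in IV and -0.01 to 0.24 in V. Single members that were never called changed sign as follows on the log2 scale. Uqcrb was -0.0055 with RLE size factors, -0.016 with upper-quartile scaling, -0.016 with limma-voom, -0.020 with DESeq2, -0.020 with no filter, -0.014 with the mitochondrial genome left out, -0.021 with the replicate block and -0.12 with sample weights. Sdhb was -0.063 with limma-voom, -0.078 with the litter block, -0.045 with the replicate block and -0.086 with sample weights, where Ndufc2 was -0.026 and Cox7c -0.048. With library totals Ndufc2 was -0.12, Sdhb -0.11, Uqcrh -0.031, Uqcrb -0.15, Cox7c -0.10, Atp5b -0.014, Cox7b -0.018, Ndufa4 -0.026 and Atp5g3 -0.012. Without deleted replicates 1 and 3 Ndufc2 was -0.081, Sdhc -0.15, Sdhb -0.29, Uqcrh -0.068, Uqcrb -0.28, Atp5b -0.16, Cox8a -0.12 and Atp5g3 -0.16. Without deleted replicates 1 and 4 Ndufc2 was -0.18, Sdhc -0.14, Sdhd -0.18, Sdhb -0.53, Uqcrh -0.23, Uqcrb -0.31, Cox4i1 -0.16, Cox7c -0.28, Atp5b -0.059, Cox6a1 -0.046, Cox6b1 -0.090, Cox7a2 -0.082, Cox7b -0.20, Cox8a -0.11, Ndufa4 -0.18 and Atp5g3 -0.10. With 1 library left out Ndufc2 ran from -0.069 to 0.13, Ndufs4 from -0.18 to 0.034, Sdhc from -0.088 to 0.39, Sdhb from -0.23 to 0.32, Uqcrh from -0.076 to 0.27, Uqcrb from -0.23 to 0.14, Cox7c from -0.064 to 0.18, Atp5b from -0.068 to 0.24, Atp5g2 from -0.27 to 0.0068, Cox7b from -0.0070 to 0.26 and Atp5g3 from -0.054 to 0.28.

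The shared replicate numbers were not taken to pair the samples, since not every same-numbered pair correlated above 0.1. No litter held both genotypes. Deviations from the group means of replicates 1 to 4 correlated at 0.096, 0.22, 0.11 and 0.33, all above 0. Of the 12 pairs with different numbers 10 were below 0. Deviations sum to 0 within a group, so values above 0 in some pairs push the others below 0. The 10 pairs below 0 are therefore no separate evidence. By the data and not the design, 4 of 8 libraries correlated best with their own number, which does not decide on a pairing. With the replicate block 0 members were called. Members with few reads (Uqcr11, Cox4i2, Cox7b2, Cox8c) are limited by depth, at which 1 read was worth 0.0436 to 0.0918 CPM.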
